A study of Rattus norvegicus with 6 samples.

Results

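The smooth muscle contractile genes comprised 10 genes of the 21797 in the rat expression table: Acta2, Tagln, Cnn1, Myl9, Tpm1, Tpm2, Myh11, Actg2, Lmod1 and Des. They were named by symbol, and they were chosen with the results of the same Rb1 and DMSO libraries in view, so their difference between the treatments is given as a description and without a test. All 10 were detected, and all 10 were among the 10781 genes tested, those with 3 or more of the 6 libraries at an FPKM of 1 or above. FPKM is the number of sequenced fragments of a gene per kilobase of transcript scaled to the size of its library, so levels may be compared between genes. The cells were bone marrow mesenchymal stem cells (BMSCs), the plastic-adherent cells grown out of the marrow of rat femurs and tibiae. According to the methods of the study, the donors were Sprague–Dawley rats of 4 weeks, and cells of passages 2 to 3 were used. The labels call the cells female, whereas the culture methods name male rats. For 3 libraries the cells had received 20 µM ginsenoside Rb1, a triterpene glycoside from ginseng, over 24 h. The cells of the other 3 are named in the labels only by DMSO, the usual solvent control. No genetic change is named for either group. Whether the 3 libraries of a treatment stem from separate cultures or animals is not stated, so each p-value reflects a spread between libraries that may be technical only.

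The estimated number of fragments behind a library ran from 8197157 in Rb1 replicate 1 to 14177043 in Rb1 replicate 3, and the DMSO libraries held 10162601 to 12337326. Rb1 replicate 1 was thus the shallowest library. The 13 mitochondrial protein genes took 18.05% to 24.76% of the summed FPKM with Rb1 and 10.22% to 18.46% with DMSO. Markers of adherent stromal cells were abundant in every library, with a summed level over 12 genes of 6814 to 8776 FPKM with Rb1 and 9083 to 10147 FPKM with DMSO. Most of it came from Vim and Col1a1. Col1a1 stood at 1976 to 3829 FPKM with Rb1 and 4218 to 4953 FPKM with DMSO. Vim overlapped, at 2972 to 3236 FPKM and 2897 to 3500 FPKM, so the direction of the stromal sum may rest on Col1a1. Macrophage markers were abundant too, with a sum over 15 genes of 4883 to 5240 FPKM with Rb1 and 4484 to 4718 FPKM with DMSO, most of it from Lyz2, the lysozyme of phagocytes. Without Lyz2 the macrophage sum was 1511 to 1585 FPKM with Rb1 and 1636 to 1833 FPKM with DMSO, so its direction rested on that gene. RNA of both cell types was thus present, and in bulk RNA a smaller number of cells of a type and less RNA per cell cannot be told apart.

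Smooth muscle contracts when phosphorylated myosin pulls on actin filaments that are dressed with tropomyosin, calponin and caldesmon instead of the troponin of striated muscle. The genes of this apparatus are classically switched on together by serum response factor, which binds the CArG box of their promoters with the coactivators myocardin and the myocardin-related factors, the latter released into the nucleus when actin polymerises. Cultured mesenchymal stromal cells, pericytes and myofibroblasts share several of these genes, above all Acta2 and Tagln, whereas Myh11 and Lmod1 are more restricted to differentiated smooth muscle.

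Promoter sequence from RefSeq (assembly GRCr8) was found for 6 of the 10 genes, Acta2, Cnn1, Tpm1, Tpm2, Actg2 and Des. Each runs from 250 bases before the annotated start to 50 bases after it. Both strands were searched for the CArG box with up to 1 mismatch and for GGAATG, the core of the element bound by the TEAD factors, and no matches overlapped. The promoters of Acta2 and Tpm1 are printed because they are the 2 that held both motifs, and that of Cnn1 because the gene had the largest difference between the treatments and its window held neither. Capitals mark the matches. The Acta2 window is chr1:241172454-241172753 on the minus strand, the Tpm1 window chr8:76543366-76543665 on the minus strand and the Cnn1 window chr8:28908187-28908486 on the plus strand.
Acta2: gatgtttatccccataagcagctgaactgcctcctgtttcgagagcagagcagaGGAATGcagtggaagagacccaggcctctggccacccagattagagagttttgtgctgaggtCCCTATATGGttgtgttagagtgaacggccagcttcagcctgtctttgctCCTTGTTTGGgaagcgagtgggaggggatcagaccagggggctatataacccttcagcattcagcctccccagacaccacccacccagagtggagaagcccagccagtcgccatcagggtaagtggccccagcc
Tpm1: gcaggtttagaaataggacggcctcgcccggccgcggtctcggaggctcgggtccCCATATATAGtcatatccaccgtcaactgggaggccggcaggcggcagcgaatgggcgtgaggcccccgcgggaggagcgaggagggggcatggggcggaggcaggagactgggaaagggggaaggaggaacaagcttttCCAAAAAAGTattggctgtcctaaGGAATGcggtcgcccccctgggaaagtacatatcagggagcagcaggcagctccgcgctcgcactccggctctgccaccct
Cnn1: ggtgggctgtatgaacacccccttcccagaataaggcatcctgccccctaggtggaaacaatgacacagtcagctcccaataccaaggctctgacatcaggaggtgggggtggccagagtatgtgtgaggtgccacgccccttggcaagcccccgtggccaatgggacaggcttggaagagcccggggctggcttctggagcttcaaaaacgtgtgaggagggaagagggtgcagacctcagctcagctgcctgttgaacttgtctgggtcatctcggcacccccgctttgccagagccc
In Acta2 the CArG-like matches begin at -134 and -84 and GGAATG at -196, counted from the annotated start, and in Tpm1 they begin at -195 and -55 with GGAATG at -31. Over the 33469 promoters in the reference, 21.3% held a CArG box with up to 1 mismatch, 1.64% held an exact one, 14.2% held GGAATG and 3.20% held GGAATG together with the CArG-like match. A match is a description of letters and not of a bound site, and a window without one says only that these letters were not in it.

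By mean FPKM over the 6 libraries the genes fell into 3 tiers. Tagln (811.0), Acta2 (611), Tpm2 (368), Myl9 (276) and Tpm1 (212) formed the upper tier, Cnn1 (51.1) stood alone in the middle, and Lmod1 (9.94), Des (9.43), Myh11 (6.82) and Actg2 (4.29) lay lowest. Neighbours in this order had overlapping ranges over the libraries within the upper tier and within the lower tier, whereas the ranges of the tiers did not overlap. Tagln and Acta2 thus stood at the top, and the more restricted Myh11 and Lmod1 were low.

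**Figure D1:**
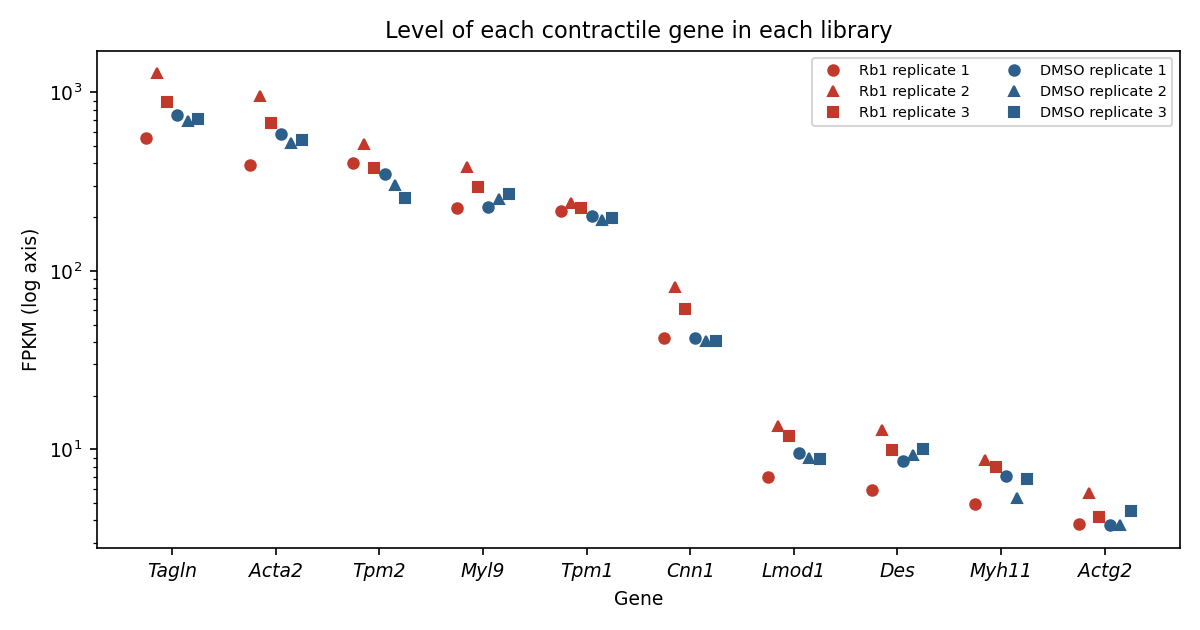
FPKM of the 10 contractile genes (log10 axis) in each of the 3 Rb1 and 3 DMSO libraries, ordered by mean level, 1 point per library. Tagln and Acta2 reached 1279 and 957 FPKM in Rb1 replicate 2, and Actg2, the lowest gene, stayed between 3.76 and 5.68 FPKM.

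As a mean of log2(FPKM + 1), 9 of the 10 genes were higher with Rb1 than with DMSO and Des was lower by 0.02, while in mean FPKM Des was 1.03-fold higher. Cnn1 and Tpm2 differed most, by 1.49-fold and 1.43-fold in mean FPKM. The median difference of the 10 genes was 0.20 on the log2(FPKM + 1) scale, beside -0.07 over all genes tested, of which 41.0% were higher by value. Rb1 replicate 2 was the highest of the 6 libraries for all 10 genes (9.67% of all genes tested), and Rb1 replicate 1 was the lowest for 6 of them (33.8% of all genes tested). Without Rb1 replicate 2 the median of the 10 genes was -0.002, and without Rb1 replicate 1 it was 0.43. The difference between the treatments was smaller than the SD between the Rb1 libraries for every gene other than Cnn1, Tpm1 and Tpm2.

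Acta2 (ENSRNOG00000058039, chromosome 1, 252537614 to 252550394, minus strand, in an unnamed rat build) encodes α-smooth muscle actin, the thin-filament actin of smooth muscle and myofibroblasts. Its levels were 391.8, 957 and 670.2 FPKM in Rb1 replicates 1, 2 and 3 and 585, 521 and 540.3 FPKM in DMSO replicates 1, 2 and 3. The Rb1 libraries thus lay on both sides of the DMSO libraries, with replicate 1 below all of them and replicates 2 and 3 above. Mean and SD were 673 ± 282 FPKM for Rb1 and 549 ± 32.7 FPKM for DMSO (n = 3 each), which is 0.20 higher on the log2 scale (SE 0.29). Without Rb1 replicate 2 the difference turned to -0.10, and without Rb1 replicate 1 it was 0.55. At least 4244 estimated fragments stood behind each value, so counting error was at most 1.54% and far below the spread of the Rb1 libraries.

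Actg2 (ENSRNOG00000029401, chromosome 4, 115215059 to 115239723) encodes γ-smooth muscle actin, the actin of visceral smooth muscle. It stood at 3.80, 5.68 and 4.19 FPKM in the Rb1 libraries and at 3.76, 3.76 and 4.54 FPKM in the DMSO libraries. The groups overlapped, and only Rb1 replicate 2 lay above every DMSO library. The difference was 0.14 (SE 0.16), and with 42 to 95 estimated fragments per library the counting error reached 15.4%. Actins are close paralogs, so fragments may be split between them and the lower actins are uncertain.

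Tagln (ENSRNOG00000017628, chromosome 8, 50222895 to 50246656) encodes transgelin (SM22α), an actin-binding protein and the most abundant member here. Its levels were 553, 1279 and 882 FPKM with Rb1 and 749.6, 691 and 711 FPKM with DMSO. As for Acta2, Rb1 replicate 1 was below all DMSO libraries and replicates 2 and 3 were above all of them. The log2 difference of 0.25 (SE 0.28) was smaller than the SD of 0.61 between the Rb1 libraries, and it was -0.04 without Rb1 replicate 2.

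Cnn1 (ENSRNOG00000027736, chromosome 8, 23113047 to 23121761) encodes calponin 1, which binds actin and restrains the myosin ATPase. It was measured at 41.9, 80.8 and 60.8 FPKM with Rb1, against 42.2, 40.3 and 40.4 FPKM with DMSO. The DMSO libraries were the tightest of any member, while Rb1 replicate 1 lay among them and replicates 2 and 3 well above. Mean and SD were 61.2 ± 19.5 FPKM for Rb1 and 40.9 ± 1.08 FPKM for DMSO (n = 3 each), which is 0.52 higher on the log2 scale (SE 0.22). Unlike for Acta2 and Tagln, it kept its direction without either Rb1 library, at 0.76 without replicate 1 and 0.30 without replicate 2.

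The tropomyosins, coiled-coil proteins that lie along the actin filament, were the 2 members whose groups did not overlap. Tpm1 (ENSRNOG00000018184, chromosome 8, 72814739 to 72842228) stood at 216, 241 and 224 FPKM with Rb1 and at 203, 192 and 198 FPKM with DMSO. Tpm2 (ENSRNOG00000016731, chromosome 5, 59016621 to 59025631) stood at 404, 517 and 378 FPKM with Rb1 and at 347, 304 and 257 FPKM with DMSO. Every Rb1 library was thus above every DMSO library for these genes, a small step for Tpm1 (0.20, SE 0.11) and a larger one for Tpm2 (0.51, SE 0.17). Over all genes tested, 11.9% had all Rb1 libraries above all DMSO libraries and 20.3% had them all below. Because the members were chosen on this same contrast, nothing is read from the 2 of 10. Both genes give rise to muscle and non-muscle isoforms by alternative splicing, and a gene-level FPKM adds these together.

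Myosin was represented by the light chain gene Myl9 and the heavy chain gene Myh11. Myl9 (ENSRNOG00000020246, chromosome 3, 152857591 to 152863960), whose product is the regulatory light chain phosphorylated by myosin light chain kinase, stood at 225, 383 and 297 FPKM with Rb1 and at 228, 252 and 271 FPKM with DMSO. The difference of 0.24 (SE 0.20) became 0.05 without Rb1 replicate 2. Myh11 (ENSRNOG00000057880, chromosome 10, 764420 to 859184), the smooth muscle myosin heavy chain, stood at 4.94, 8.74 and 7.94 FPKM with Rb1 and at 7.12, 5.37 and 6.85 FPKM with DMSO. Both genes showed Rb1 replicate 1 below all DMSO libraries and replicates 2 and 3 above all of them. The Myh11 difference of 0.12 (SE 0.21) was the smallest positive one, and it was -0.02 without Rb1 replicate 2.

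Lmod1 and Des belong to the filament ends and the intermediate filaments. Lmod1 (ENSRNOG00000051548, chromosome 13, 52147554 to 52190228), leiomodin 1, a nucleator of actin filaments in smooth muscle, stood at 6.98, 13.5 and 11.8 FPKM with Rb1 and at 9.53, 8.98 and 8.85 FPKM with DMSO. Des (ENSRNOG00000019810, chromosome 9, 82556572 to 82564294), the muscle intermediate filament desmin, stood at 5.89, 12.9 and 9.96 FPKM with Rb1 and at 8.56, 9.33 and 9.99 FPKM with DMSO. Lmod1 had the same layout as Acta2, whereas for Des only Rb1 replicate 2 exceeded the DMSO libraries. The differences were 0.17 (SE 0.22) for Lmod1 and -0.02 (SE 0.24) for Des. The sign for Des turned to positive with quantile normalization (0.08) and with median scaling (0.06), and at 104 to 346 estimated fragments its counting error reached 9.81%.

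**Figure D2:**
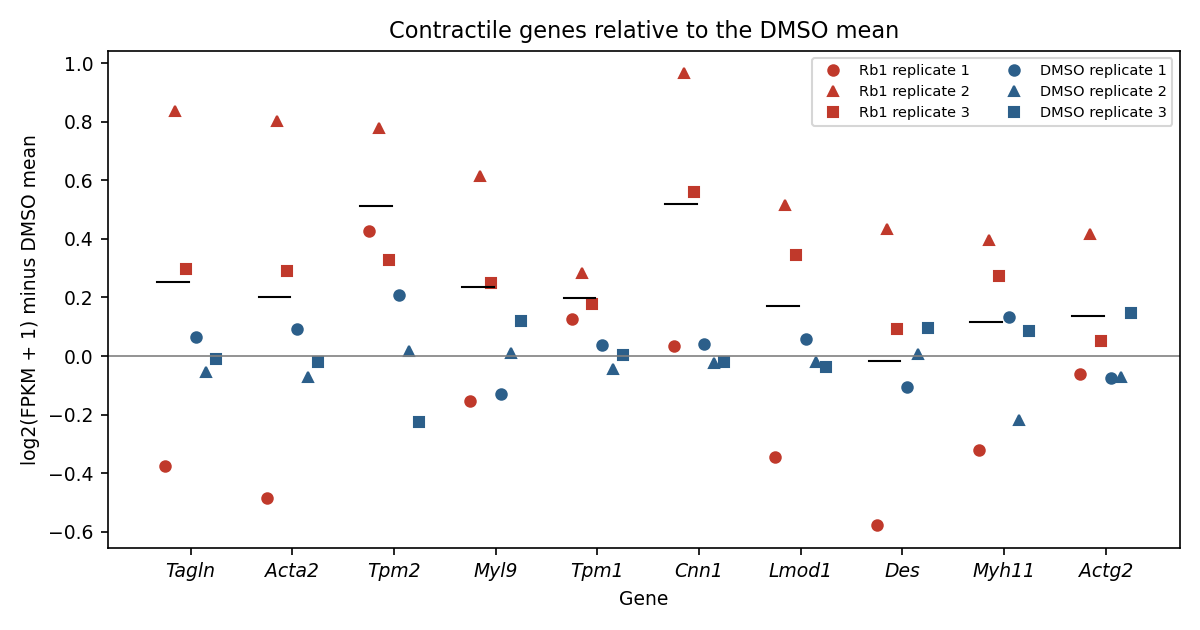
Level of each contractile gene in every library, as log2(FPKM + 1) minus the mean of the DMSO libraries (vertical axis), with a short black line at the Rb1 mean, ordered by mean level. Rb1 replicate 2 is the highest point for all 10 genes, and the Rb1 mean lies between -0.02 for Des and 0.52 for Cnn1.

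None of the 10 genes passed an adjusted p of 0.05 in the limma fit over all genes, where 2 genes did (0.0186%). With voom on estimated fragments 0 genes passed, and with array weights, which count an outlying library less, 800 did. At an unadjusted p below 0.05 the fit counted 1 member higher with Rb1, Tpm2, and 0 lower, against 8.27% of all genes higher and 14.6% lower. These member counts come from the contrast on which the genes were chosen and are given without a reading. The split of all such genes depended on scaling, with 892 higher and 1575 lower as deposited, 1279 and 1158 after quantile normalization, and 1346 and 1017 after median scaling.

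The Rb1 libraries differed among themselves more than the DMSO libraries did for every member, as was the case for 68.4% of all genes tested. The SD of the log2 level within Rb1 had a median of 0.42 over the 10 genes and of 0.19 over all genes tested, while within DMSO the medians were 0.093 and 0.13. The contractile genes were thus more variable than the typical gene within the Rb1 group but not within the DMSO group. Going from Rb1 replicate 1 to Rb1 replicate 2, the level differed by 0.16 to 1.29 on the log2 scale, with a median of 0.81. Of all genes tested, 3.61% had a difference of 0.81 or more between these 2 libraries, and the median gene had -0.03.

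The size of this step followed a gradation among the members. Acta2 was 2.44-fold, Tagln 2.31-fold and Des 2.19-fold higher in Rb1 replicate 2 than in replicate 1. Lmod1 and Cnn1 were both 1.93-fold higher, Myh11 1.77-fold, Myl9 1.71-fold and Actg2 1.497-fold. The tropomyosins varied least, Tpm2 by 1.28-fold and Tpm1 by 1.12-fold. Within DMSO, the highest library was 1.12-fold above the lowest for Acta2 and 1.08-fold for Tagln. The same libraries took the same places for nearly all members, for 9 of 10 genes in the order replicate 1, replicate 3, replicate 2 from low to high (18.5% of all genes), with Tpm2 as the exception. For 8 genes replicates 2 and 3 both exceeded all DMSO libraries (16.6% of all genes), the exceptions being Actg2 and Des. For 6 genes, Acta2, Tagln, Myl9, Myh11, Lmod1 and Des, replicate 1 was below all DMSO libraries, which held for 44.5% of all genes.

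Summed over the 10 genes, the level was 1853, 3498 and 2546 FPKM in Rb1 replicates 1, 2 and 3 and 2184, 2027 and 2049 FPKM in the DMSO libraries. As a share of the FPKM outside the mitochondrial genes, this was 0.279%, 0.574% and 0.420% with Rb1 and 0.340%, 0.317% and 0.345% with DMSO. The pattern of 1 low and 2 high Rb1 libraries was therefore present with and without the mitochondrial genes in the total. Rb1 replicate 1 was also the shallowest library, and Rb1 replicate 3 was deeper than replicate 2 and had the lower sum. The part that depth, mitochondrial share or culture makeup had in the pattern was not tested.

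**Figure D3:**
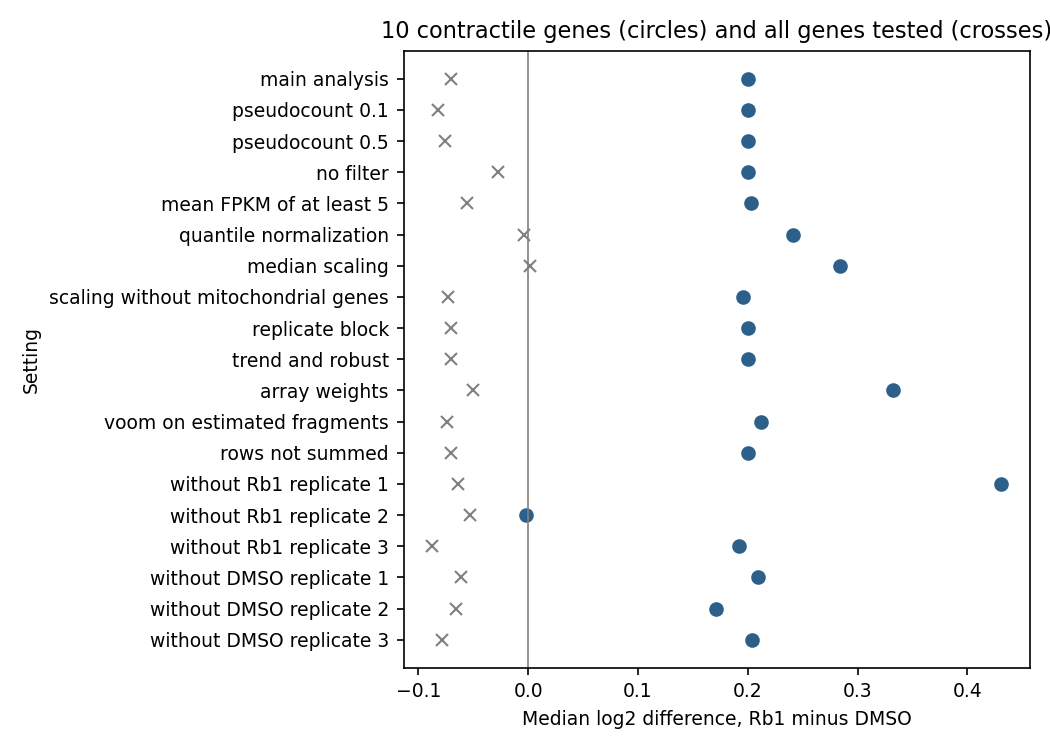
Median log2 difference between Rb1 and DMSO (horizontal axis) over the 10 contractile genes (circles) and over all genes tested (crosses) under the main analysis and 18 other settings. The median of the 10 genes stays between 0.17 and 0.43 except without Rb1 replicate 2, where it is -0.002.

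Ratios between genes within a library do not depend on the scaling of that library. Acta2 to Tagln was 0.708, 0.748 and 0.760 with Rb1 and 0.780, 0.754 and 0.760 with DMSO, so the 2 most abundant members kept their proportion within 1.10-fold over the 6 libraries. Other ratios set each member against a relative that is not specific to smooth muscle, and these pairs were chosen after the values were seen. Acta2 to Actb, the cytoplasmic β-actin, was 0.253, 0.350 and 0.274 with Rb1 and 0.180, 0.200 and 0.198 with DMSO. Cnn1 to Cnn2, a calponin of many cell types, was 0.261, 0.329 and 0.252 with Rb1 and 0.168, 0.200 and 0.176 with DMSO. For both, all Rb1 libraries were above all DMSO libraries, replicate 1 included. The ratio of Actg2 to Actg1, the cytoplasmic γ-actin, showed the same with low counts for Actg2, at 0.00410 to 0.00446 with Rb1 and 0.00297 to 0.00372 with DMSO.

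The other ratios overlapped between the groups, so that of 11 pairs of a member and a relative 3 had Rb1 above DMSO, 0 had it below and 8 overlapped. The share over other gene pairs was not computed, so nothing is read from these counts. Tagln to Tagln2 was 0.704, 1.21 and 0.924 with Rb1 and 1.05, 0.817 and 0.904 with DMSO. Lmod1 to Tmod3, a tropomodulin that caps filament ends in many cells, was 0.121, 0.310 and 0.239 with Rb1 and 0.242, 0.255 and 0.262 with DMSO. In both, Rb1 replicate 1 was the lowest and replicate 2 the highest of the 6 libraries. The Actb level that entered the Acta2 to Actb ratio was 1550.0, 2729.8 and 2447 FPKM with Rb1 and 3243, 2609 and 2725 FPKM with DMSO, a difference of -0.38 (SE 0.22, adjusted p = 0.328 by limma). The higher Acta2 to Actb ratio of Rb1 replicate 1 thus came with a low Actb level and not with a high Acta2 level. Actg1 and Cnn2, the relatives in the other ratios that separated the groups, were also lowest in Rb1 replicate 1, at 852 and 161 FPKM.

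**Figure D4:**
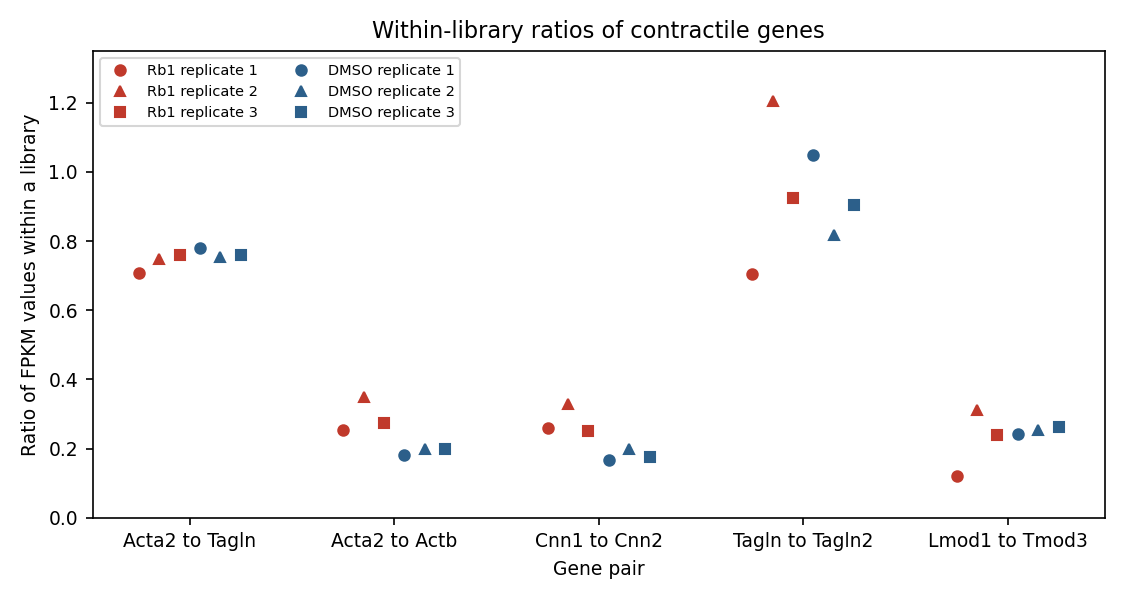
Ratio of FPKM values within a library (vertical axis, linear from 0) for 5 gene pairs, 1 point per library in the 3 Rb1 and 3 DMSO libraries. Acta2 to Actb and Cnn1 to Cnn2 separate the groups, at 0.253 or more against 0.200 or less and at 0.252 or more against 0.200 or less, and the other 3 pairs overlap.

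The genes most like the members over the 6 libraries were sought by the mean absolute difference between a gene's standardised log2 level and the mean standardised profile of the 10 members. Nabp2, which encodes a single-stranded DNA-binding protein, came first at 0.071 SD units and Csrp1, a LIM-domain protein of smooth muscle and other actin-rich cells, second at 0.076. Ctxn1 (0.12), Ackr4 (0.12), an atypical chemokine receptor, and Adgrg6 (0.13), an adhesion G protein-coupled receptor, followed, and the median gene was at 1.10. Standardised values leave out the level of a gene and the size of its differences. Adgrg6 ran only from 0.974 to 1.21 FPKM, near the filter, and Ctxn1 from 2.61 to 4.83 FPKM. Csrp1 stood at 219.8, 406 and 307 FPKM with Rb1 and at 254, 234 and 236 FPKM with DMSO, the same layout as Tagln. Among the members themselves Tagln was closest to the shared profile (0.14, rank 9 of the genes tested) and Tpm2 farthest (0.55, rank 480). The profile is the mean of these same members, so their closeness to it is partly built in. All points of this comparison share the same 6 libraries, so it is a description.

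The rest of the contractile apparatus was taken from a list of 40 genes that excluded the members, of which 32 were tested. This list and those that follow were also chosen with earlier results of these data known. Their counts are therefore a description. At an unadjusted p below 0.05 by limma 6 were higher with Rb1 (8.27% of all genes) and 1 was lower (14.6%), and at an adjusted p below 0.05 none passed. Their median difference was 0.09, beside 0.20 for the members and -0.07 for all genes, and 10 of the 32 had all Rb1 libraries above all DMSO libraries (11.9% of all genes) while 2 had them below (20.3%). Rb1 replicate 2 was the highest library for 18 of the 32 and Rb1 replicate 1 the lowest for 15. Without Rb1 replicate 1 the median was 0.22 (-0.06 for all genes). At the unadjusted level 11 were then higher (929 of the 10781 genes tested). Without Rb1 replicate 2 the median was -0.02 (-0.05 for all genes) and 4 were higher (954 of all genes).

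The 4 genes of this list with the smallest p values were spread over different roles. Cald1 (caldesmon, the actin-binding inhibitor of the myosin ATPase) stood at 229, 241 and 259.6 FPKM with Rb1 and at 144, 151 and 194 FPKM with DMSO, a difference of 0.59 (SE 0.14, adjusted p = 0.118 by limma). Dstn (destrin, an actin-depolymerising factor and the most abundant gene of the list) stood at 447, 363 and 366 FPKM with Rb1 and at 292, 243 and 189 FPKM with DMSO, a difference of 0.72 (SE 0.18, adjusted p = 0.121 by limma). Ppp1r12a, the targeting subunit of myosin phosphatase, stood at 14.1, 14.5 and 17.0 FPKM with Rb1 and at 8.84, 9.20 and 11.9 FPKM with DMSO, a difference of 0.57 (SE 0.15, adjusted p = 0.121 by limma). For these 3 genes Rb1 replicate 1 was above all DMSO libraries, unlike for Acta2, Tagln, Myl9, Myh11, Lmod1 and Des. Hspb1, a small heat shock protein that associates with actin filaments, went the other way, at 105, 148 and 115 FPKM with Rb1 and 242, 189 and 169.6 FPKM with DMSO (-0.70, SE 0.18, adjusted p = 0.121 by limma).

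Relatives of the members that are not specific to smooth muscle numbered 15 after the filter. By limma's unadjusted p, 1 was higher (8.27% of all genes) and 0 lower (14.6%). Their median difference of 0.04 became -0.01 without Rb1 replicate 2. Tmod3 was the gene with the smallest p (0.46, SE 0.14, adjusted p = 0.140 by limma), followed by the essential myosin light chain Myl6 (0.26, adjusted p = 0.224). Tagln2 differed by 0.25 (adjusted p = 0.341), Actg1 by -0.21 (adjusted p = 0.506) and the abundant intermediate filament Vim by -0.02 (adjusted p = 0.923). The striated actins were low, with Acta1 between 1.79 and 5.08 FPKM (-0.01, adjusted p = 0.983) and Actc1 at 0.066 FPKM or less and untested.

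Among 24 regulators of the contractile genes in the fit, 10 were higher and 14 lower by value, close to the 41.0% higher of all genes tested. By limma's unadjusted p, 0 passed as higher (8.27% of all genes) and 5 as lower (14.6%), none passed after adjustment, and the median was -0.17. This median turned to 0.03 without Rb1 replicate 1, and it was -0.12 after quantile normalization and -0.09 after median scaling. Srf, serum response factor itself, stood at 11.7, 19.6 and 17.0 FPKM with Rb1 and at 18.4, 17.3 and 18.6 FPKM with DMSO (-0.18, SE 0.18, adjusted p = 0.569 by limma). Mkl1, a myocardin-related coactivator, stood at 3.13, 8.44 and 6.57 FPKM with Rb1 and at 8.75, 7.47 and 9.15 FPKM with DMSO (-0.50, SE 0.29, adjusted p = 0.326 by limma). Both were lowest in Rb1 replicate 1, as were 15 of the 24 regulators (33.8% of all genes). Myocd, the muscle-restricted coactivator, was at 0.019 to 0.094 FPKM in every library, with 1 to 5 estimated fragments, and was not tested, and Mkl2 was not analysed here.

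Of the regulators with the smallest p values, Tgfbr2, a receptor for TGF-beta, stood at 26.5, 33.9 and 50.1 FPKM with Rb1 and at 71.5, 61.7 and 67.6 FPKM with DMSO (-0.89, SE 0.22, adjusted p = 0.119 by limma). Klf4, a transcription factor that represses the contractile genes in smooth muscle, stood at 29.3, 25.6 and 30.1 FPKM with Rb1 and at 40.2, 37.8 and 39.6 FPKM with DMSO (-0.46, SE 0.11, adjusted p = 0.121 by limma). Both had every Rb1 library below every DMSO library. The growth factor receptor Pdgfrb (-0.44, adjusted p = 0.156), Smad3 (-0.35, adjusted p = 0.177) and the most abundant gene of the list, Prrx1 (-0.21, adjusted p = 0.615), were lower by value as well.

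Of 15 other genes responsive to SRF or TGF-beta, 1 was higher (8.27% of all genes) and 4 lower (14.6%) at the unadjusted level. Their median of -0.17 became 0.01 without Rb1 replicate 1, -0.07 after quantile normalization and -0.11 after median scaling. These included the integrin subunit Itgb1 (0.38, adjusted p = 0.123), the matrix genes Tgfbi (-0.49, adjusted p = 0.145) and Fn1 (-0.44, adjusted p = 0.181), Itga5 (-0.40, adjusted p = 0.186) and Col1a1, the most abundant (-0.60, adjusted p = 0.209), all by limma over all genes.

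**Figure D5:**
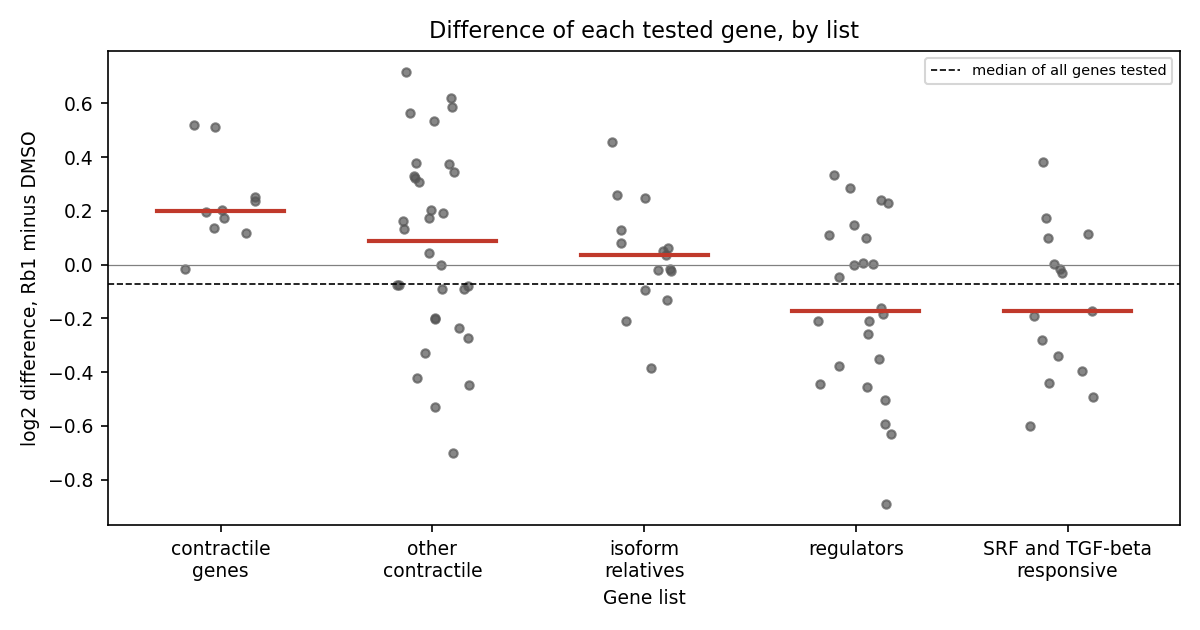
Log2 difference between Rb1 and DMSO (vertical axis) of every tested gene in 5 lists, 1 point per gene, with a red line at the list median and a dashed line at the median of all genes tested. The medians lie at 0.20 for the contractile genes, 0.09 for the other contractile genes, 0.04 for the isoform relatives and -0.17 for both the regulators and the SRF- and TGF-beta-responsive genes.

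Markers of other cells that express contractile genes were read beside these values. For pericytes and other mural cells the summed level of 12 markers was 489, 713 and 746 FPKM with Rb1 and 725 to 826 FPKM with DMSO, most of it from Anpep, which other cells express too. Of the 12, 4 were below 1 FPKM in every library, namely Rgs5 (0.227 FPKM or less), Notch3 (0.181 or less), Cspg4 (0.154 or less) and Higd1b (0.393 or less). The others reached 1 FPKM, with Pdgfrb at 72.3 to 128 FPKM, Ndufa4l2 at 13.9 to 27.0 FPKM, Cox4i2 at 4.83 to 9.23 FPKM and Abcc9, Foxs1, Kcnj8 and Mcam between 0.953 and 4.202 FPKM. Among the 8 in the fit, 0 passed as higher (8.27% of all genes) and 2 as lower (14.6%) by the unadjusted p, with a median of -0.18. Of these lower genes Pdgfrb was also counted among the regulators, so the lists are not separate observations. Those with the smallest p after Pdgfrb were Ndufa4l2 (-0.47, adjusted p = 0.206 by limma), Kcnj8 (-0.21, adjusted p = 0.308) and Anpep (-0.27, adjusted p = 0.404). Striated muscle markers summed to 14.7 to 15.7 FPKM with Rb1 and 12.1 to 15.9 FPKM with DMSO, with 22 of 27 below 1 FPKM in every library and 9 at 0 in all of them. The 3 that were tested, Tnnt3 (-0.21, adjusted p = 0.601), Tnnc1 (0.22, adjusted p = 0.663) and Tnnt2 (0.02, adjusted p = 0.954), did not pass.

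The remaining lists described the culture. At the unadjusted level 8.27% of all genes were higher and 14.6% lower, and these shares stand beside the stromal, macrophage and endothelial counts that follow. Stromal markers had 2 of 12 higher and 4 lower at that level, with a median of -0.19. Itgb1 among the higher, and Pdgfrb and Col1a1 among the lower, were already counted in lists above. By value, 2 of the 12 stromal markers were higher and 10 lower as deposited, and 5 and 7 after median scaling. Those with the smallest p were the TGF-beta coreceptor Eng (-0.62, adjusted p = 0.119 by limma), Itgb1, which was higher (0.38, adjusted p = 0.123), Pdgfrb (-0.44, adjusted p = 0.156) and the chemokine Cxcl12 (-0.36, adjusted p = 0.173). Macrophage markers had 1 of 15 higher and 2 lower, with a median of -0.13, and with Lyz2 at 0.27 (adjusted p = 0.196 by limma), Laptm5 at -0.41 (adjusted p = 0.155), C1qa at -0.31 (adjusted p = 0.201) and the receptor Csf1r at -0.27 (adjusted p = 0.239). Endothelial markers had 0 of 4 higher and 3 lower, with Esam at -0.53 (adjusted p = 0.118 by limma), Egfl7 at -0.78 (adjusted p = 0.121), Tie1 at -0.40 (adjusted p = 0.162) and Flt1 at -0.14 (adjusted p = 0.578), and 6 of the 10 listed were below 1 FPKM in every library. Within Rb1, the summed mural and stromal levels were lowest in replicate 1, as the contractile sum was, but were not highest in replicate 2 for the mural list. These sums lean on a few genes. Anpep (389.8 FPKM) and Col1a1 (1976 FPKM) were lowest in Rb1 replicate 1, whereas Vim (3236 FPKM) was highest there within Rb1. The part of cell makeup in the contractile values was not tested.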

How the data were processed

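RNA was measured in 3 Rb1 and 3 DMSO libraries, made, according to the methods of the study, with a stranded kit after removal of rRNA. The deposited FPKM values were made by the authors; the processing notes name CASAVA 1.8, HISAT2 and a human build, which does not match the rat gene identifiers of the table, and the sources used here do not name the counter. The deposited count columns hold fragment counts that, from their values, the authors rescaled to nearly equal totals (a signal, not whole counts), and dividing each library by its smallest common step gave estimated fragments, used for depth, counting error and a voom alternative (99.4% to 99.5% of values up to 50 fragments came out whole within 0.05).

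Rows sharing a symbol were summed (233 symbols, 22062 rows to 21797 genes). Genes reaching an FPKM of 1 in 3 or more libraries were fitted with limma 3.58.1 in R 4.3.3 on log2(FPKM + 1), an offset that shrinks differences of low genes, with Benjamini-Hochberg adjustment over all 10781 genes. The fit was tested on simulated data. The members and gene lists were chosen with earlier results of these data known. Besides the members, the genes named are, for each list, up to 4 with the smallest p and the most abundant, plus Srf, Myocd, Mkl1, Mkl2, Actb, Actg1, Acta1 and Actc1 and the 5 genes most like the members. Genes that enter only a within-library ratio and the mural markers Rgs5, Notch3, Cspg4, Higd1b, Cox4i2, Abcc9, Foxs1 and Mcam were named after their values were seen. The results of 1 list are not reported here. Other pseudocounts, filters, scalings, weights, a replicate block and leaving out each library were the alternatives.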

Additional observations from a re-analysis of the deposited data

How the results depend on the processing

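The median log2 difference of the 10 contractile genes, 0.20, ranged from 0.196 to 0.332 over the alternatives that kept all libraries, and from -0.002 (without Rb1 replicate 2) to 0.431 (without Rb1 replicate 1) when each library was left out. Values of single members were positive in 163 and negative in 16 of 179 over 18 settings. By more than the gene's own SD within the groups, 1 moved, Tpm1 at 0.28 with median scaling. That SD is wide for genes whose Rb1 libraries disagreed, so Acta2 did not count as moved although it ran from -0.097 to 0.546. The count therefore does not rank the members by stability. Actg2 fell below the filter at a mean FPKM of 5. The count of genes passing an adjusted p of 0.05, 2 in the main analysis, was 1 with a mean FPKM of at least 5, 1 with median scaling, 1 with scaling without mitochondrial genes, 0 with the replicate block, 0 with voom on estimated fragments, 800 with array weights, and 0 to 6 when each library was left out. Of the other contractile genes, 6 were higher at an unadjusted p below 0.05, beside 892 of all genes. Quantile normalization gave 8 beside 1279, median scaling 9 beside 1346 and array weights 11 beside 1242. When each library was left out the count was 4 to 11, beside 523 to 954 of all genes. The single lower gene, beside 1575 of all genes, became 2 without a filter, beside 1869 of 15679 genes. It was 1 to 2 when each library was left out, beside 940 to 1625 of all genes. The cause of these shifts was not tested.

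Whether libraries of the same number share a culture or a batch is not known. The deviations of same-numbered libraries from their group means correlated at -0.004, -0.042 and 0.16, which cannot decide it. With the replicate block the median of the members was 0.20. An edgeR test was planned but not run, because the rescaled counts were not whole, and voom was added after seeing the data. Depth limits Actg2 and Des most, at 42 and 104 fragments in the poorest library, and every value rests on 3 libraries per group.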
